A study of Drosophila melanogaster with 3 samples.

Results

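The Drosophila genes Hsp22, Hsp23, Hsp26, Hsp27, Hsp67Ba and Hsp67Bc encode small heat shock proteins and stand together on chromosome arm 3L. The seventh gene described here, Hsp83, encodes the fly Hsp90 chaperone and lies elsewhere on the same arm. The 7 genes were chosen by name, with earlier results of these data known, out of 13945 protein-coding genes on the 6 chromosome arms. The question was where the transcription factor shaven (sv), a Pax-family protein known from the eye and the bristle lineage, was recovered around them.

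The data were chromatin immunoprecipitation and sequencing (ChIP-seq) peak lists from 1 group of 3 biological replicates. All 3 came from a transgenic line that stably carries sv isoform RD fused to GFP at its C-terminus. Whole wandering third-instar larvae of mixed sex were used, so each list mixes every larval tissue. The labels do not name the promoter that drives the fusion. Per the sample descriptions the antibody was against GFP, although the antibody field names sv itself. The labels name no second genotype, no untagged line and no heat treatment, so the comparisons below are between genes, between summits and between replicates.

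The optimal set, which is the authors' list of reproducible peaks called on all reads together, held 3823 peaks in the dm6 build. The relaxed lists, 1 for the pooled reads and 1 for each replicate, held 30000 peaks each and include background. A summit is the base of highest signal in a peak, and a rank orders a list by the deposited signal from the strongest peak. Median signals were 12.6, 9.13 and 10.2 in replicates 1, 2 and 3 and 27.1 in the pooled list, so signals were compared only within a list. No read counts were at hand, so depth is unknown and values carry no counting interval.

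Small heat shock proteins share an alpha-crystallin domain and hold unfolding proteins in a soluble state, from which ATP-driven chaperones can refold them. Hsp90 proteins act later, on nearly folded clients such as kinases and steroid receptors. On heat shock, such genes are induced through heat shock factor, which binds inverted repeats of GAA called heat shock elements, and at promoters such as that of Hsp26 the GAGA factor keeps the chromatin open beforehand. In Drosophila, small heat shock genes and Hsp83 are also transcribed without heat, and Hsp22, Hsp23, Hsp26 and Hsp27 are known to respond to ecdysone at the end of larval life.

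All 7 genes had at least 1 optimal summit inside the gene or within 2 kb of it, where 4580 of 13945 protein-coding genes (32.8%) did. The 7 genes shared 7 distinct summits, 4 in the small heat shock gene cluster and 3 at Hsp83. Each of the 4 cluster summits was counted for 2 of the genes, because the genes stand so close, and the genes are therefore not 7 separate observations. A narrower rule told them apart. Within 500 bp of one of their own annotated starts, 4 of the 7 genes had a summit, namely Hsp22, Hsp26, Hsp27 and Hsp83, beside 2714 of 13945 protein-coding genes (19.5%). Hsp23, Hsp67Ba and Hsp67Bc had none there. Only Hsp22 and Hsp83 had a summit between their annotated ends. The best rank of the 7 genes had a median of 977, from 178 to 1818, beside a median of 1515.5 over the 4580 protein-coding genes with a summit. Genes were counted repeatedly for the same summit, and they were chosen with earlier results of these data known. The differences from all protein-coding genes, in shares and in ranks, are therefore a description and were not tested.

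Hsp27 had the strongest summit near any of the 7 genes. The gene, FBgn0001226, encodes a small heat shock protein that accumulates in the nucleus, and it runs on the forward strand of 3L from 9384063 to 9385694. The peak covered 9383740 to 9384071, and its summit at 9383912 lay between genes, 151 bp upstream of the Hsp27 start. Its signal was 361 in the pooled list and 153, 91.0 and 114 in replicates 1, 2 and 3. It ranked 178 in the optimal set and 210, 213 and 149 in the replicates. All 3 replicates thus placed it near the top of their lists, with their own summits 3, 28 and 5 bp away. In relation to the median signal of each list it was 12.1, 9.96 and 11.2 times as strong in the replicates and 13.3 times as strong in the pooled list.

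The same summit was the only one counted for Hsp23, FBgn0001224, a cytosolic small heat shock protein gene on the forward strand from 9381882 to 9382765. It lay 1147 bp past the end of Hsp23 and 2030 bp from its start. In the relaxed lists too it was the summit nearest to that start, at 2030 bp in the pooled list and 2027, 2002 and 2035 bp in replicates 1, 2 and 3. Hsp27 and Hsp23 are neighbours in the same orientation, and in these lists the peak stood directly in front of the one and behind the other.

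The 250 bases in front of both starts are shown because they are the clearest contrast in the cluster, with the strongest summit in one and no summit of any list in the other. Both are on the forward strand, from the RefSeq Release 6 sequence on dm6 coordinates, chr3L:9383813-9384062 for Hsp27 and chr3L:9381632-9381881 for Hsp23. Capitals mark matches to a pair of heat shock units (GAANNTTC or TTCNNGAA), to GAGAG and to TATAAA on either strand.
Hsp27 upstream: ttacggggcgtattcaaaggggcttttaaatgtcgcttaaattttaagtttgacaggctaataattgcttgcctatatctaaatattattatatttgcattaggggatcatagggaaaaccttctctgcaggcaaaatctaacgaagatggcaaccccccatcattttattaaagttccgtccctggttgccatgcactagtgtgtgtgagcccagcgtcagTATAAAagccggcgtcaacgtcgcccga
Hsp23 upstream: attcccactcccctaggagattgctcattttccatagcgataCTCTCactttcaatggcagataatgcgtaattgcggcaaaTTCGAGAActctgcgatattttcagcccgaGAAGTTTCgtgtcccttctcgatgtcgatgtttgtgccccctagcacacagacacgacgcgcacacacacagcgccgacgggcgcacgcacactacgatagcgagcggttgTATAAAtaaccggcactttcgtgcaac
The Hsp27 summit is base 100 of its sequence. Its only marked match is TATAAA at -28 from the start, and no pair of heat shock units or GAGAG occurs in these 250 bases. The Hsp23 sequence holds an outward pair at -138, an inward pair at -168, 1 GAGAG match at -208 and TATAAA at -27. GC content was 42.8% in front of Hsp27 and 51.2% in front of Hsp23. Sequence farther upstream was not searched beyond the summit windows described below.

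Hsp26 had the second strongest summit of the cluster. The gene, FBgn0001225, encodes another cytosolic small heat shock protein and is known for its GAGA-rich promoter. It runs on the reverse strand from 9376418 to 9377427. The peak covered 9377304 to 9377823 with the summit at 9377564, 137 bp upstream of the start of transcript Hsp26-RB and 189 bp upstream of that of Hsp26-RA. Its signal was 166 in the pooled list and 71.8, 36.9 and 48.4 in replicates 1, 2 and 3. It ranked 977 in the optimal set and 1081, 1403 and 963 in the replicates. The replicate ranks differed little for this summit: the highest was 1.46 times the lowest, where the median of the 200 optimal peaks within 100 ranks of it was 2.11.

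The Hsp26 summit was also the only one counted for Hsp67Ba, FBgn0001227, a small heat shock gene on the reverse strand from 9377802 to 9379534. It lay 238 bp past the end of Hsp67Ba and 1970 bp downstream of its start. The nearest pooled summit to the Hsp67Ba start, a relaxed one, was 1769 bp away. Hsp67Ba, like Hsp23, therefore had no summit of its own in these lists at its start.

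The sequence in front of Hsp26 is shown for the letters around its summit. It is chr3L:9377428-9377677, read on the reverse strand of the same build, with capitals as above.
Hsp26 upstream: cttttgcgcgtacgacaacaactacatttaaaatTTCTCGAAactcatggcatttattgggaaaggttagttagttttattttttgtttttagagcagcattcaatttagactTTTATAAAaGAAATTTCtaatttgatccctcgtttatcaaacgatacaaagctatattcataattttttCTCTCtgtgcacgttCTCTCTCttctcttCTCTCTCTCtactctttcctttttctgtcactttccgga
The summit is base 114. The outward pair of heat shock units is centred 13 bp from it, an inward pair begins at -216 from the Hsp26-RB start, and 6 GAGAG matches (some overlapping, here all as CTCTC) begin between -68 and -35 from the Hsp26-RB start. Counting the whole window of 301 bp around the summit, there were 8 GAGAG matches, the most of the 7 summits. That window also held a second inward pair, which begins at -49 from the Hsp26-RA start, past the printed bases. Overlapping matches to TATAAA on either strand begin at -137 and -135 from the Hsp26-RB start, the first at the summit base itself, and a further one stands at -28 from the Hsp26-RA start. GC content of the printed bases was 32.8%.

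Hsp22 encodes the mitochondrial small heat shock protein. The gene, FBgn0001223, runs on the forward strand from 9372931 to 9374964, with 1 annotated start at each of 9372931 and 9373997. Its peak covered 9373310 to 9373829. The summit, at 9373570, lay 427 bp upstream of the second start, in the 5' UTR of the longer transcript Hsp22-RA, and also in the 3' UTR of CG4456, which overlaps Hsp22 on the same strand. Its signal was 116 in the pooled list and 49.9, 22.8 and 37.1 in replicates 1, 2 and 3. It ranked 1818 in the optimal set and 2024, 3198 and 1601 in the replicates, so it stood near the middle of the optimal set and inside the strongest 3823 peaks of every replicate. The window of 301 bp around it held 6 GAGAG matches, beginning between 90 and 127 bp to the right of the summit, and no pair of heat shock units.

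Hsp67Bc, FBgn0001229, lies on the reverse strand from 9371511 to 9372497 and in flies works with the co-chaperone Starvin in protein quality control. Its start was 1073 bp from the nearest pooled summit, that of Hsp22. In replicates 1 and 2 a weak relaxed summit lay 293 and 244 bp from the start, at ranks 22276 and 21585 of 30000. These weak summits, at 9372790 and 9372741, were nearer to the first Hsp22 start, at 141 and 190 bp. They were nearer still to the first base of CG4456 at 9372722. In replicate 3 the summit nearest to the Hsp67Bc start was 1065 bp away. A second optimal summit counted for both Hsp67Bc and Hsp22 stood on the other side, at 9371063 in a peak from 9370803 to 9371322. It was 448 bp past the end of Hsp67Bc and 1868 bp upstream of Hsp22, in an intron of transcript RB of Fdx1, a ferredoxin gene, and 5 bp upstream of the start of Fdx1-RA. Its signal was 103 in the pooled list and 38.4, 21.7 and 36.4 in the replicates, at ranks 3095, 3478 and 1660. By the nearest annotated protein-coding start this summit belongs to Fdx1, and the 2 kb rule alone ties it to the heat shock genes.

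**Figure D1:**
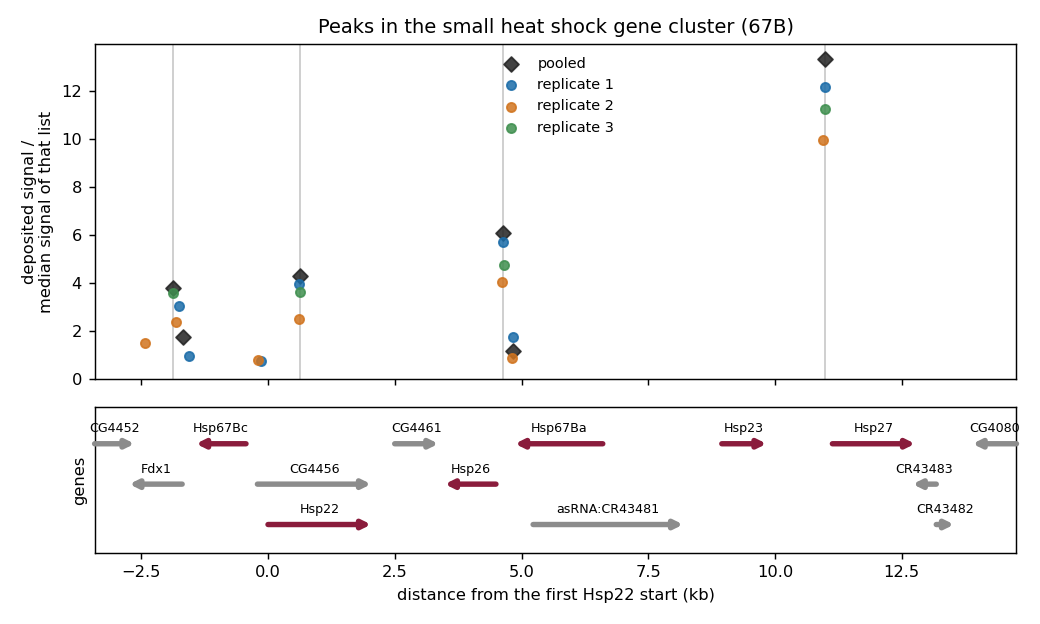
Peak summits in the small heat shock gene cluster. The x axis is the distance from the first Hsp22 start in kb, and the y axis is the deposited signal of a summit divided by the median signal of its list, for the pooled relaxed list (diamonds) and each replicate (circles); vertical lines are the 4 optimal summits, and arrows below are annotated genes, with the 6 small heat shock genes in dark red and genes that run past the interval cut at its ends. The summit in front of Hsp27 lies between 9.96 and 13.3 in all 4 lists, and no summit of any list stands over Hsp23.

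Seen as 1 interval, from 2 kb before Hsp67Bc to 2 kb past Hsp27 (9369511 to 9387694), the cluster spans 18.2 kb. It overlaps 14 annotated genes, 11 of them protein-coding. Apart from the 6 named above these are CG4452, Fdx1, CG4456, CG4461 and CG4080, and the others are the antisense RNA gene asRNA:CR43481 and the pseudogenes CR43483 and CR43482. CG4456 is the gene once called Hsp67Bb, and CG4461 encodes a further alpha-crystallin protein.

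The 4 optimal summits correspond to 22.0 per 100 kb, where all of 3L had 2.82 per 100 kb. Genes are also packed there, with 60.5 protein-coding genes per 100 kb beside 9.74 on 3L. Per protein-coding gene the interval had 0.364 optimal summits and 3L had 0.290. CG4452 and CG4080 start outside the interval but were counted whole, which raises its gene density and lowers its summits per gene. The density of optimal summits was thus several times that of the arm, and nearer to it once counted per gene. In the relaxed lists the densities in the interval and on 3L lay closer together, at 33.0 and 22.7 per 100 kb in the pooled list. They were 38.5 and 22.4 in replicate 1, 38.5 and 23.1 in replicate 2, and 22.0 and 22.7 in replicate 3.

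The pooled relaxed list added 2 summits to these 4. One at 9371262, on the flank of the Fdx1 summit, had signal 47.3, rank 6836 and a −log10 q of 1.87. The other, at 9377765, on the flank of the Hsp26 summit, had signal 31.7, rank 11898 and a −log10 q of 0.676, while all optimal peaks shared a −log10 q of 3.96. The replicate lists held 7, 7 and 4 summits in the interval. Replicate 3 thus held the 4 optimal summits and no other. The summits in replicates 1 and 2 that were not matched to an optimal one had ranks from 6678 to 22276.

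The widest stretch without a summit of any list ran for 6119 bp, from 9377765 to 9383884, the Hsp27 summit of replicate 2. It holds all of Hsp67Ba and of Hsp23. At the scale of the cluster, then, the summits fell at Fdx1, Hsp22, Hsp26 and Hsp27, and the starts of Hsp67Ba and Hsp23 between them had none.

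Hsp83, FBgn0001233, lies 6.18 Mb away, on the forward strand of 3L from 3192969 to 3197059. Of its annotated starts, transcript RB begins at 3192969 and RA at 3193216. The strongest summit, at 3193081 in a peak from 3193028 to 3193210, stood between them, 112 bp downstream of the first in the 5' UTR of Hsp83-RB and 135 bp upstream of the second. The signal was 212 in the pooled list and 64.8, 77.6 and 66.0 in replicates 1, 2 and 3. It ranked 585 in the optimal set but 1310, 301 and 495 in the replicates.

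A second Hsp83 peak covered 3194152 to 3194344, with its summit at 3194234 in the intron of both transcripts, 1018 bp downstream of the RA start. Its signal was 144 in the pooled list and 83.9, 24.6 and 31.7 in the replicates, at ranks 779, 2821 and 2102. The order of the start and the intron differed between replicates. In replicate 1 the intron summit was 1.29 times as strong as the start summit, while in replicates 2 and 3 the start summit was 3.15 and 2.08 times as strong as the intron summit, and 1.47 times in the pooled list. This comparison was chosen after its values were seen, and it has no test.

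The start and intron summits of Hsp83 also varied more in rank than the median peak of like strength. The highest replicate rank was 4.35 times the lowest at the start and 3.62 times at the intron, where the median of the optimal peaks within 100 ranks was 2.03 and 2.11. At the other 5 summits this ratio lay between 1.43 and 2.10, below the median of their neighbours in every case. Among the 3 lists, replicate 1 is the one with the low start and the high intron signal.

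The intron peak is shown because it is the optimal peak inside Hsp83 that lies away from any start, and because its order with the start summit differed between replicates. The sequence is the whole peak of 193 bp, chr3L:3194152-3194344, forward strand, and capitals as above would mark matches.
Hsp83 intron peak: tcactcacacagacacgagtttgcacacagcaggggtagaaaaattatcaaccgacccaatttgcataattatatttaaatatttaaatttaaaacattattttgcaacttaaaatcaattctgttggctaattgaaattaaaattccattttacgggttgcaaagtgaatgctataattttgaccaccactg
Its summit is base 83. None of the marked letters occurs in the peak itself, and GC content was 31.1%. In the wider window of 301 bp an outward pair begins at -100 from the summit, outside the peak.

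The third Hsp83 summit, at 3197687 in a peak from 3197427 to 3197946, lay between genes 628 bp past the end of Hsp83. It stood 56 bp upstream of the start of CG14966, which runs towards Hsp83 on the reverse strand. Its signal was 75.3 in the pooled list and 22.2, 19.2 and 24.7 in the replicates. With rank 3628 of 3823 it was close to the end of the optimal set, and its ranks were 6722, 4286 and 3224 in the replicates, so only replicate 3 held it within its strongest 3823. The next optimal summit out, at 3199164, was 2105 bp past the end of Hsp83 and fell just outside the rule, with signal 148 and rank 1203. In the cluster the summit just inside the rule was that of Fdx1, 1868 bp from Hsp22, and the one just outside was that of Hsp26, 2600 bp from Hsp22.

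**Figure D2:**
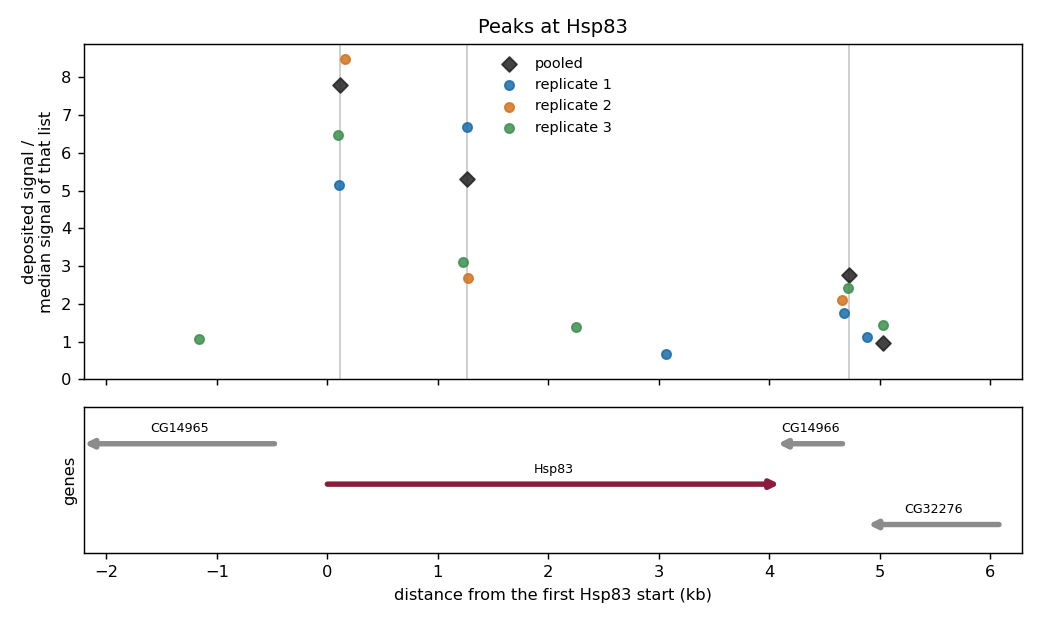
Peak summits at Hsp83 and 2 kb either side. The x axis is the distance from the first Hsp83 start in kb, and the y axis is the deposited signal divided by the median signal of its list, for the pooled relaxed list (diamonds) and each replicate (circles); vertical lines are the 3 optimal summits and arrows are annotated genes, with CG14965 cut at the left edge. Replicate 1 is lowest at the start (5.16) and highest at the intron (6.68).

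Across the 7 summits, 6 were within the strongest 3823 peaks of all 3 replicates, beside 2183 of 3823 optimal peaks (57.1%). The optimal set was called on the reads of the same replicates, so this count is no independent check of it. The summit that missed was the one at CG14966.

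**Figure D3:**
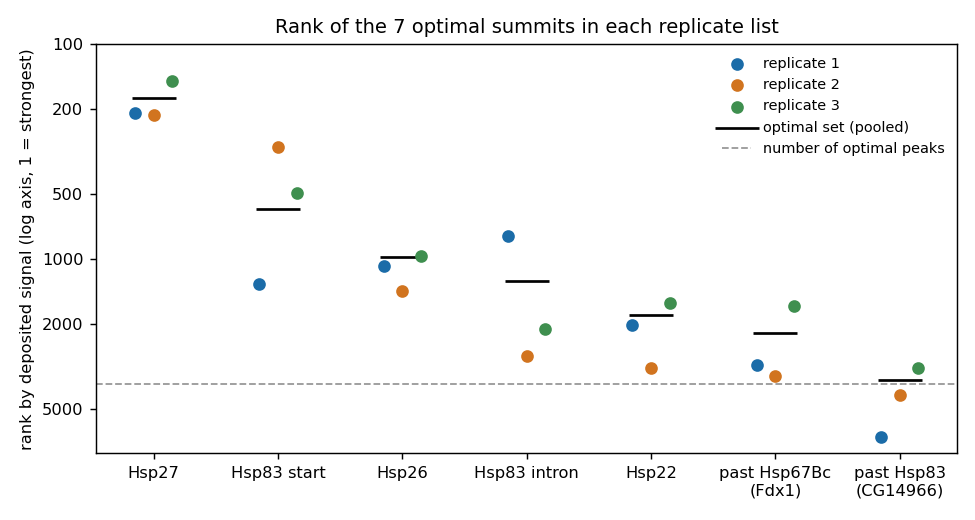
Ranks of the 7 optimal summits near the 7 genes. The y axis is the rank by deposited signal on a log scale with the strongest at the top, circles are the 3 replicate lists, black bars the rank in the optimal set, and the dashed line the number of optimal peaks, 3823. The Hsp27 summit ranks between 149 and 213 in the replicates, and the start and intron summits of Hsp83 show the widest spread.

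To set the summits against one another, each signal was taken as a percentage of the Hsp27 signal in the same replicate. The Hsp83 start summit had 61.9% ± 21.7 (SD, n = 3), with 42.5%, 85.3% and 57.8% in replicates 1, 2 and 3. The Hsp26 summit had 43.3% ± 3.36, the Hsp83 intron summit 36.6% ± 15.9 and the Hsp22 summit 30.1% ± 4.37. The Fdx1 summit had 26.9% ± 4.29 and the CG14966 summit 19.1% ± 3.93 (SD, n = 3 for each). In this order, neighbours overlapped in their replicate values at Hsp83 start and Hsp26, at Hsp26 and the Hsp83 intron, at the intron and Hsp22, and at Hsp22 and Fdx1. The values of Hsp26 lay wholly above those of Hsp22, and Hsp27 above all others.

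Hsp27 was compared with the Hsp83 start summit, the strongest at Hsp83 in the optimal set, as a log2 ratio within each list. The summits of both comparisons were picked by pooled rank, and the pooled list was called on the reads of these same replicates. Agreement of the replicates with the pooled order is therefore partly built in and is no independent support. The ratio was 1.23, 0.23 and 0.79, a mean of 0.75 ± 0.50 (SD, n = 3) or 1.68-fold, higher at Hsp27 in 3 of 3 replicates. The exact sign-flip permutation test, two-sided, gave p = 0.25 (0.5 adjusted over the 2 comparisons made), and 0.25 is the smallest p that 3 pairs allow. The Hsp83 start summit against Hsp26 gave log2 ratios of -0.15, 1.07 and 0.45, a mean of 0.46 ± 0.61 (SD, n = 3) or 1.37-fold, higher at Hsp83 in 2 of 3 replicates. The same exact test gave p = 0.5, also 0.5 after adjustment. The replicates differed in the direction of this ratio, and a test of 3 pairs could not have passed the threshold. With the strongest Hsp83 summit of each replicate, which in replicate 1 was the intron one, the log2 ratio of Hsp27 to Hsp83 in replicate 1 was 0.86. The log2 ratio of Hsp83 to Hsp26 there was 0.23, and Hsp83 was then the higher in 3 of 3 replicates (exact p = 0.25), an alternative chosen after seeing the data. The labels number the 3 as biological replicates and do not say which larvae each drew on, so these values measure only the spread between the deposited lists.

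The peaks differed in width as well as strength. The peaks at Hsp22, Hsp26, Fdx1 and CG14966 all had 520 bp, the length of 2942 of the 3823 optimal peaks (77.0%). The Hsp27 peak had 332 bp, the Hsp83 start peak 183 bp and the Hsp83 intron peak 193 bp. Shorter peaks made up 22.8% of the optimal set and 89.3% of its 600 strongest. GC content in the 301 bp around the summits was 45.5% at the Hsp83 start and 43.5% at Hsp27, and from 33.2% to 35.9% at the other 5, beside a median of 36.9% (interquartile range 33.6% to 40.5%) over all optimal summits. The Hsp83 start and Hsp27 were thus above that range, and they are also the strongest of the 7.

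Heat shock elements were sought as pairs of adjacent units on both strands. The outward pair GAANNTTC lay within 150 bp of 3 of the 7 summits (Hsp26, Hsp83 start and Hsp83 intron), beside 8.48% of all optimal summit windows. Over promoters, taken as 250 bases before to 50 after 1 start of each gene, it was present in 3 of the 7 genes (Hsp23, Hsp26 and Hsp67Bc) and in 9.35% of 13944 protein-coding genes. The inward pair TTCNNGAA was near 1 of the 7 summits and in 2 of the 7 promoters, beside 8.06% of summit windows and 7.67% of promoters. An element of 3 adjacent units with no mismatch was found at none of the 7 summits or promoters, and in 0.523% of summit windows and 0.430% of promoters. A search without mismatches misses degenerate elements, so no match says only that these letters are not in the window.

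The outward pairs found in front of the genes, with 5 bases on either side and the pair in capitals, are shown because they let each element be placed against its summit. All are on dm6 coordinates from the RefSeq Release 6 sequence and are read in the direction of their gene, with distances taken from the centre of the pair.
Hsp26, chr3L:9377543-9377560, reverse strand, 13 bp from the Hsp26 summit: taaaaGAAATTTCtaatt
Hsp83, chr3L:3193143-3193160, forward strand, 70 bp from the Hsp83 start summit: ctctaGAAGTTTCtagag
Hsp22, chr3L:9373804-9373821, forward strand, 242 bp from the Hsp22 summit: ccccaGAAACTTCcacgg
Hsp22, chr3L:9373905-9373922, forward strand, 343 bp from the Hsp22 summit: gcgaaGAAAATTCgagag
Hsp67Bc, chr3L:9372604-9372621, reverse strand, 958 bp from the nearest optimal summit: ccccaGAAGGTTCccagt
Hsp23, chr3L:9381739-9381756, forward strand, 2165 bp from the nearest optimal summit: cccgaGAAGTTTCgtgtc
The Hsp83 pair begins at -68 from the RA start and the Hsp22 pairs at -188 and -87 from the RB start, both in front of a second start that the promoter count did not use. The elements at Hsp26 and Hsp83 lay within 150 bp of a summit and those at Hsp22, Hsp67Bc and Hsp23 did not. Hsp27, with the strongest summit, had no pair in either window. A summit near 1 of these genes was therefore not always near a pair, nor a pair near a summit.

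Other letters were counted in the same windows. GAGAG or its complement was present at 3 of the 7 summits (Hsp22, Hsp26 and Hsp27, the last with 1 match at -120 from the summit) and in 3 of the 7 promoters, beside 34.2% of summit windows and 30.2% of promoters. TATAAA was present at 4 of the 7 summits, beside 46.3% of summit windows, and in 6 of the 7 promoters, beside 45.3%. At 6 of the genes a match began between -30 and -27 from one of the starts, Hsp67Ba being the exception. That range was read from these matches and any annotated start was allowed. The share of all protein-coding genes by this rule was not counted, so whether 6 of 7 is unusual is not known. TATCGATA, the letters of the DREF element, was at none of the 7 summits and in the promoter of Hsp83-RB alone, at -182, beside 6.59% of summit windows and 8.94% of promoters. GTCACGC, a core of paired-domain sites, was at none of the 7 summits or promoters, beside 1.57% of summit windows and 1.51% of promoters.

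Other genes of the heat shock response and of protein folding were read by the same rule, in 6 lists of 51 genes. Of these 51, 22 (43.1%) had an optimal summit in the gene or within 2 kb, and 12 (23.5%) within 500 bp of an own start, beside 32.8% and 19.5% of protein-coding genes. Among the other small heat shock and alpha-crystallin genes 3 of 6 had a summit. CG4461 and CG4456 did so through the cluster summits already described, and CG14207 had its own at rank 1190, 1018 bp upstream of its nearest start. CG13133 and CG7409 had none. None of the 6 had a summit within 500 bp of a start.

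Among the other heat-inducible genes 4 of 10 had a summit. The best ranked was that of stv, which encodes the co-chaperone Starvin, at rank 895 and 619 bp upstream of a start. A second, weaker stv summit lay within 500 bp of a stv start. lncRNA:Hsromega, the nuclear transcript of the heat shock puff, had rank 971 at 134 bp past a start. Hsp68 had rank 3806, near the end of the set, and Hsp70Ab rank 1763, in each case nearer to the start of another gene (SMC1 and CG3281). Their summits were among the strongest 3823 peaks of 1 and 2 replicates. DnaJ-1 and Hsp70Aa had none. The Hsp70 genes are near-identical copies, whose reads can be shared out or dropped in mapping, so their counts are uncertain.

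Of the other Hsp90 family genes and the cochaperones, 3 of 9 had a summit. They were Dpit47 at best rank 63, Stip1 at best rank 366 and Trap1, the mitochondrial Hsp90, at rank 1240. In each case the protein-coding start nearest to that summit was a neighbour's (Adf1, Pi3K21B and Vha16-1). Dpit47 and Stip1 had 2 summits each, and their weaker one lay within 500 bp of an own start. Cdc37 and Fkbp59 had none. Of the Hsp70 cognates, which are expressed without heat, 2 of 6 had a summit, Hsc70-5 at rank 953 and Hsc70-4 at rank 1371, both close to a start at 45 and 196 bp upstream. Hsc70-1 and Hsc70-2 had none. Of the chaperonins 5 of 12 had a summit, CCT5, CCT8, CCT3, Hsp60D and Hsp60A at ranks 1017, 1573, 1835, 1854 and 2224. For all but Hsp60A the nearest protein-coding start was that of another gene (EndoG, CG30349, CG10324 and Hacd2). The summits of CCT8 and CCT3 were still within 500 bp of an own start, at 446 and 457 bp upstream. Those of CCT5 and Hsp60D were 3524 and 3849 bp from theirs. The summits of CCT8 and Hsp60D were among the strongest 3823 peaks of 2 replicates. CCT1 and CCT2 were among those without.

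Regulators of heat shock transcription had summits at 5 of 8 genes. Trl, which encodes GAGA factor, had 5 summits, the strongest at rank 23 in the optimal set and at 26, 9 and 24 in replicates 1, 2 and 3. That summit lay 1528 bp downstream of a Trl start, and it ranked above every summit near the 7 heat shock genes. At least 1 weaker Trl summit lay within 500 bp of a Trl start. Spt5 had rank 415, Nelf-E rank 497, TfIIS rank 1986 and Spt6 rank 2220. The summits of Spt5, Nelf-E and TfIIS were nearest to the starts of RpL11, RpL14 and ck. That of Nelf-E was also 79 bp upstream of its own start, while those of Spt5 and TfIIS were 4816 and 3800 bp from theirs. Cdk9 and CycT had none, and neither did Hsf, the gene of heat shock factor itself.

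**Figure D4:**
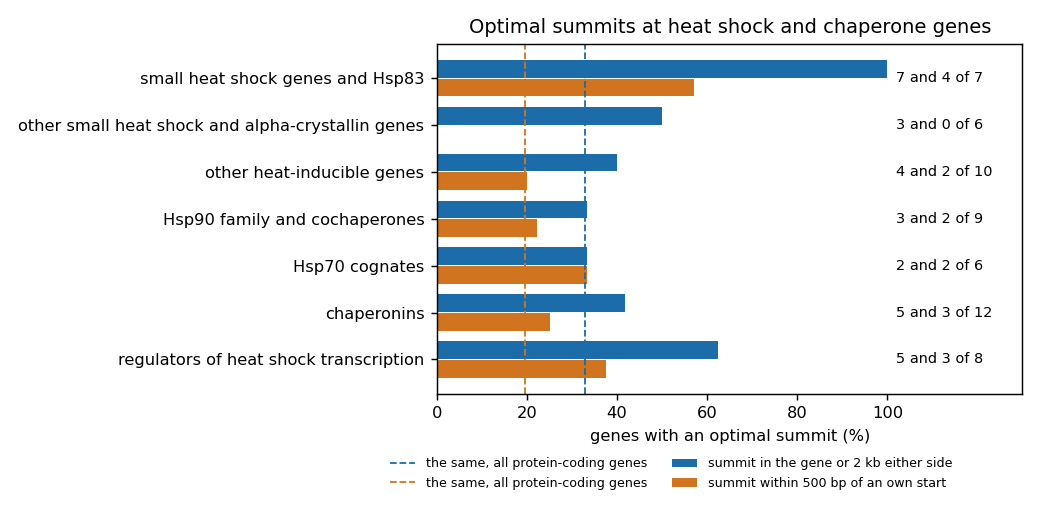
Share of genes with an optimal summit in each list. Blue bars give the percentage of genes with a summit in the gene or within 2 kb, orange bars the percentage with one within 500 bp of an own start, dashed lines the same shares over all protein-coding genes (32.8% and 19.5%), and the text at the right the counts. The 7 genes described here stand at 7 and 4 of 7, with shared summits counted for each gene. They were chosen with earlier results of these data known.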

How the data were processed

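The data were ChIP-seq peak lists from 3 replicates of GFP-tagged sv larvae. Per the labels' descriptions, sonication aimed at sizes of 200 to 800 (no unit stated), and per the deposited file manifests the lists were called against a shared control, not analysed here. The authors deposited an optimal set, thresholded on the irreproducible discovery rate, and relaxed lists for the pooled reads and for each replicate. In each list the authors' signal value gives the strength of a peak, in a scaling not given in the sources used here. Ranking did not use the deposited −log10 q-value, which is tied at its maximum for all optimal peaks. Summits were placed by the deposited offset from each peak's first base. The aligner, the peak caller and the reproducibility threshold are likewise not given in the sources used here. The dm3 lists were not used here.

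Positions are in dm6 and counted from 1, with the annotation of Ensembl release 115 (BDGP6.54) and the sequence of RefSeq Release 6. The spans of 13944 of 13945 protein-coding genes were identical in both, and none of 123823 peaks ran past the end of its arm. All 3823 optimal peaks were also pooled relaxed peaks. An optimal summit was matched to the nearest summit of a replicate's full list within 200 bp, and counted as held when that summit was among the strongest 3823. Motifs were sought without mismatches on both strands. Signals were compared within replicates with the exact two-sided sign-flip permutation test, with Benjamini-Hochberg adjustment over 2 comparisons. The counting and testing steps were tested on simulated data. Python 3.11.15, pandas 2.3.3, numpy 2.4.6 and matplotlib 3.10.9 were used.

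The 7 genes, the other lists and the motifs were chosen with earlier results of these data known. The genes named are the 7, every annotated gene in the cluster interval, the nearest protein-coding start to each summit, and from each other list at most 5 genes with a summit by rank and the first 2 without one in alphabetical order. Hsf was named outside this rule after its value was seen. Of the 51 other listed names, 2 were matched through a synonym. Alternatives were other distances and windows, peak overlap, the stronger part of the optimal set, whole replicate lists, ranks in place of signals, and leaving out each replicate.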

Additional observations from a re-analysis of the deposited data

How the results depend on the processing

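With 6 results and 37 alternatives, 36 values stayed in the same direction and within 1.5 times of the reported count, or on the same side of the test's threshold, and none reversed. The exception was the number of the 7 genes with an optimal summit, which fell from 7 to 2 (Hsp22 and Hsp83) when only the gene span was counted, where 9.94% of protein-coding genes had one. It was 6 at 1 kb and 7 at 5 kb either side, beside 27.5% and 45.5% of protein-coding genes. The count within 500 bp of a start was 3 at 200 bp and 4 at 1 kb, beside 14.1% and 21.9%. Leaving out each replicate in turn kept the optimal peaks held by the remaining replicates, between 2486 and 2572 peaks. The optimal set itself was not called again. Each time this gave 7 genes within 2 kb, 4 near a start, 4 cluster summits and 6 summits held. Of protein-coding genes, 24.9% to 25.1% then had a summit within 2 kb and 14.0% to 14.1% near a start. With 6 of the 7 summits held in all 3 replicates, the counts could hardly have changed and are no separate check. The 1911 strongest optimal peaks held 3 of the 4 cluster summits and 5 of the 7 summits in all replicates. The log2 ratio of Hsp27 to Hsp83 ranged from 0.51 to 1.01 and that of Hsp83 to Hsp26 from 0.15 to 0.76 when 1 replicate was left out. With 3 pairs neither test could pass 0.05, so their thresholds say nothing about stability. With the strongest Hsp83 summit of each replicate, an alternative chosen after seeing the data, the mean log2 ratios were 0.63 and 0.58. The unknown read depth limits what an absent summit shows.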
